A study of Mus musculus with 18 samples.

Results

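Gene expression in the cerebral cortex of mice kept awake for 6 h was compared with that of undisturbed mice. The comparison used 6 of the 18 arrays of the series, which are the 3 arrays titled as sleep-deprived cortex and the 3 titled as control cortex. All came from male C57BL/6J mice, an inbred laboratory strain, with 9 mice in each group. Control mice stayed undisturbed in their home cages. No transgene, drug or other allele is named for either group. The RNA of 3 mice was combined before labelling, so that each array is a pool, and 100 ng of total RNA went into each labelling reaction. Another cortex group had recovered after 6 h of sleep deprivation, for 18 h by its source label and 24 h by the protocol. Its 3 arrays entered the statistical model to estimate the spread between pools and are not described further. The other 9 arrays are of cortical cultures. The hour of sampling of the controls is missing from the labels, so time of day and sleep loss cannot be told apart here.

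During wakefulness, cortical neurons fire and release transmitter for long periods, and calcium entry and receptor signalling switch on a programme of transcription. Its first products are transcription factors called immediate early genes. They are followed by synaptic proteins, by kinases, and by phosphatases that damp the signal which induced them. Keeping rodents awake is also known to raise circulating glucocorticoid hormones and to load the protein-folding machinery of the endoplasmic reticulum, the compartment in which secreted and membrane proteins are folded.

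Each value below is a deposited log2 signal, on which a difference of 1 is a doubling, for the brightest probe set with a single gene symbol, and 14807 genes had such a probe set. Differences are sleep-deprived minus control with the standard error of the fit (n = 3 pools per group), and a gene is said to have changed where its adjusted p was under 0.05. Adjusted p-values are those of limma, a linear model fitted to every gene, with Benjamini-Hochberg adjustment over the 14807 genes. They measure the spread between pools of mice alone. Signals of different genes come from different probes, so levels are compared within a gene. The whole cortex was measured, and fewer cells of a type cannot be told apart from less RNA per cell. Pearson correlations between cortex arrays across genes were 0.99587 to 0.99751 within a group and 0.99389 to 0.99676 between groups. The defining markers of cortical excitatory neurons that were measured were all bright, with a mean in control cortex of 12.22 ± 0.22 (SD) for Slc17a7, the vesicular glutamate transporter of these neurons. The means were 9.41 ± 0.15 for Neurod6, 10.10 ± 0.059 for Tbr1 and 8.94 ± 0.020 for Cux2, which encode transcription factors of the cortical layers.

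In sleep-deprived against control cortex, 241 of 14807 genes changed (1.63%), with 107 higher (0.723%) and 134 lower (0.905%). The changes were modest in size. Only 24 of the rises and 9 of the falls reached 1.5-fold, and 132 of the 241 were under 1.3-fold. The median rise was 0.39 and the median fall -0.33 on the log2 scale, beside a median of -0.0027 over all genes. In every one of the 241 the 3 sleep-deprived pools lay entirely above or entirely below the 3 control pools. That was also true of 2783 genes in all (18.8%), with 1137 above (7.68%) and 1646 below (11.1%). At an unadjusted p under 0.05 there were 1984 genes.

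**Figure D1:**
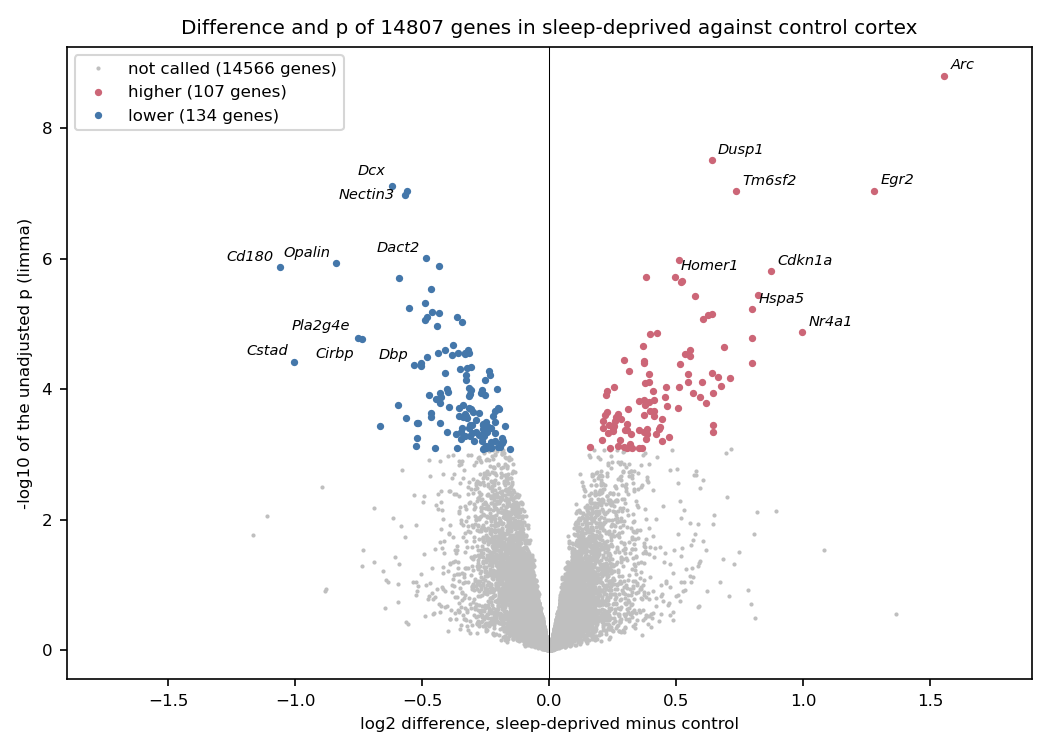
Each point is 1 of 14807 genes, with the log2 difference between sleep-deprived and control cortex on the horizontal axis and -log10 of the unadjusted limma p on the vertical axis. The 107 genes called higher are red and the 134 called lower are blue, and Arc lies apart from all others at the upper right.

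Calls depended on single pools. Without control pool 2 there were 72 changed genes, without control pool 1 there were 119, and 182 without control pool 3. Without sleep-deprived pools 1, 2 and 3 there were 77, 99 and 85. Without recovered pools 1, 2 and 3 there were 136, 155 and 212. Of the 241 genes, 57 passed in all 9 of these fits, and the number of the 9 fits in which a gene passed is given below for each group of genes. A smaller set of 15 genes passed under every one of the 18 alternative settings tried. The 11 that rose were Arc, Cdkn1a, Hspa5, Tm6sf2, Tsc22d3, P4ha1, Alox12b, Otub2, Camk1g, Banp and Dnajb5. The 4 that fell were Cd180, Opalin, Lama4 and P2ry13, of which Cd180 and P2ry13 encode receptors of microglia and Opalin a protein of myelinating oligodendrocytes.

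**Figure D2:**
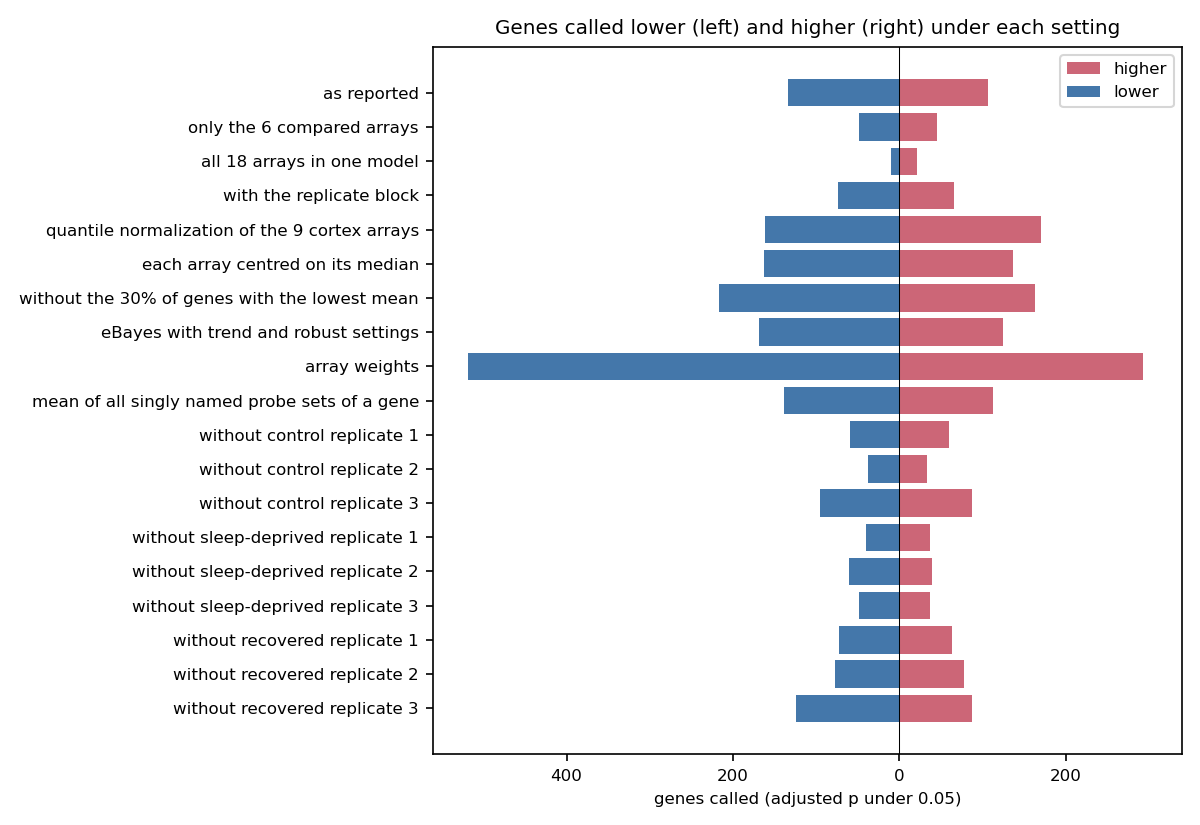
Number of genes called higher (right, red) and lower (left, blue) at an adjusted p under 0.05 as reported and under each of 18 alternative settings. The count is 241 as reported, lowest at 31 with all 18 arrays in one model and highest at 811 with array weights.

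The largest rise was that of Arc, an immediate early gene whose protein acts at the synapse on the trafficking of glutamate receptors. Its log2 signal was 8.85, 8.89 and 8.76 in the control pools and 10.46, 10.30 and 10.42 in the sleep-deprived pools. The groups did not overlap, as in every changed gene, and the gap between them was larger than the spread within either. The rise was 1.56 ± 0.050, or 2.94-fold (adjusted p = 2.3e-05). Arc passed without any one of the 9 cortex pools.

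Arc belongs to a list of activity-regulated effectors, the secreted and synaptic products of activity, in which the other risers had smaller differences. Of 20 measured activity-regulated effector genes, 6 rose, none fell and 14 did not pass, with a median difference of 0.22. Over all genes, 0.723% rose and 0.905% fell. Homer1, which encodes a postsynaptic scaffold and its activity-induced short form, read 9.26, 9.15 and 9.21 in control and 9.71, 9.66 and 9.73 in sleep-deprived pools (0.49 ± 0.039, adjusted p = 0.0018). Rasd1, a small GTP-binding protein, read 6.72, 6.44 and 6.52 in control against 7.26, 7.24 and 7.17 after sleep deprivation (0.66 ± 0.086, adjusted p = 0.012). Gpr3, a receptor that raises cyclic AMP without a known transmitter, read 8.04, 7.97 and 7.81 in control against 8.54, 8.51 and 8.58 after sleep deprivation (0.61 ± 0.059, adjusted p = 0.0040). In all of these, as in every gene that rose, the lowest sleep-deprived pool was above the highest control pool. Tiparp, an ADP-ribosyltransferase (0.55 ± 0.073), and Nptx2, a secreted pentraxin that binds AMPA receptors at synapses (0.37 ± 0.064, adjusted p = 0.035), were the remaining risers. The growth factor gene Bdnf did not pass, at 6.41, 6.33 and 6.26 in control and 6.56, 6.65 and 6.43 in sleep-deprived pools (0.21 ± 0.064, adjusted p = 0.19). Arc, Homer1 and Gpr3 passed in all 9 fits without a pool, Tiparp in 7, Rasd1 in 6 and Nptx2 in 1. The list had 3 risers without sleep-deprived pool 1 and 7 without control pool 3.

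Among 25 measured immediate early transcription factors, 7 rose, none fell and 18 did not pass (median 0.22). Their differences ranged from -0.26 to 1.28. Over all genes, 0.723% rose. Egr2, a zinc finger factor, read 6.77, 6.65 and 6.49 in control pools and 7.91, 7.91 and 7.92 in sleep-deprived pools, a rise of 1.28 ± 0.069 (2.43-fold, adjusted p = 2.2e-04). The sleep-deprived pools were almost identical, and the control pools were more spread. Nr4a1, an orphan nuclear receptor, showed the same arrangement of pools, with 9.62, 9.43 and 9.17 in control and 10.41, 10.41 and 10.38 in sleep-deprived pools (0.99 ± 0.10, adjusted p = 0.0056). Its relative Nr4a3 rose by 0.51 ± 0.070 (adjusted p = 0.016).

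The other risers of the list were Egr1 (0.37 ± 0.041, adjusted p = 0.0076), the AP-1 subunits Fosl2 (0.51 ± 0.078, adjusted p = 0.024) and Junb (0.41 ± 0.057, adjusted p = 0.017), and Npas4, a neuron-restricted factor that responds to calcium (0.22 ± 0.035, adjusted p = 0.027). Fos itself did not pass, at 6.24, 6.39 and 6.52 in control pools and 7.11, 6.67 and 7.10 in sleep-deprived pools (0.58 ± 0.12, adjusted p = 0.080). Egr1, Egr2 and Nr4a1 passed in all 9 fits without a pool, Junb in 6, Fosl2 in 5, and Nr4a3 and Npas4 in 3. Without control pool 2 the list had 3 risers. Over the pools, the median deviation of the 25 genes from their control means was 0.19, 0.25 and 0.20 in sleep-deprived pools 1, 2 and 3.

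Promoters of the immediate early list often held the letters TGACG, the shorter core of the cyclic AMP response element that the factor CREB binds. They were found in 14 of 19 members with a RefSeq promoter window (73.7%), against 3474 of 11830 genes (29.4%). Other lists were above that share too, with 8 of 13 effectors (61.5%) and 8 of 15 kinases (53.3%). Among chaperones the letters were in 9 of 18 of the endoplasmic reticulum (50%) and 8 of 16 of the cytosol and mitochondria (50%). A window runs from 250 bases before to 50 bases after a start site, on either strand. Some genes have several windows, and a gene was counted where any of its windows held the letters. A match of letters is a description and not a measured site. Among risers of the list with a window the core was in 5 of 6 (Egr2, Junb, Npas4, Nr4a1 and Nr4a3). Over all genes it was in 32 of 80 that rose (40%) and 22 of 109 that fell (20.2%). Egr2 also held the CArG box, the motif of serum response factor, and within the list only Srf itself held it as well. It was in 185 of 11830 genes with a window (1.56%) and in 2 of 80 that rose (2.5%). One stretch of the Egr2 promoter is shown because this gene had the largest rise of the list. Another CArG box of Egr2, CCATATATGG, begins 72, 73 and 133 bases before other start sites and is not printed. The box printed here is in capitals and begins 72 bases before a start site (RefSeq, GRCm38.p6):
Egr2, chr10:67537474-67537523, plus strand: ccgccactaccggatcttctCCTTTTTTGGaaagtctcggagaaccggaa

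Several kinases induced by activity rose too. Of 17 measured kinases and pseudokinases, 6 rose and none fell (median 0.16), beside 0.723% of all genes that rose. Sik1, a salt-inducible kinase that restrains CREB co-activators, read 7.48, 7.48 and 7.31 in control and 8.09, 7.95 and 8.10 in sleep-deprived pools (0.62 ± 0.060, adjusted p = 0.0038). Camk1g, a calcium/calmodulin-dependent kinase of neurons, read 9.32, 9.32 and 9.22 in control against 9.78, 9.83 and 9.83 after sleep deprivation (0.52 ± 0.043, adjusted p = 0.0019). Neither gene showed overlap between the groups, and nor did any other changed gene. The pseudokinases Trib1 (0.64 ± 0.091, adjusted p = 0.017) and Trib2 (0.37 ± 0.055, adjusted p = 0.020) bind ubiquitin ligases and lack normal catalysis. The remaining risers were the glucocorticoid-induced kinase Sgk1 (0.41 ± 0.060, adjusted p = 0.020) and Stk40 (0.35 ± 0.052, adjusted p = 0.020). Sik1 and Camk1g passed in all 9 fits without a pool, the tribbles genes in 5, and Sgk1 and Stk40 in 4. The list had 2 risers without sleep-deprived pool 1.

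Negative regulators of MAP kinase signalling were also among the risers. Of 16 measured, 6 rose and none fell (median 0.24), beside 0.723% of all genes that rose. Dusp1, a nuclear phosphatase of MAP kinases, was tight in both groups, with 9.73, 9.79 and 9.80 in control and 10.41, 10.40 and 10.42 in sleep-deprived pools (0.64 ± 0.030, 1.56-fold, adjusted p = 2.2e-04). Dusp4 read 6.83, 6.92 and 6.63 in control against 7.55, 7.69 and 7.53 after sleep deprivation (0.80 ± 0.085, adjusted p = 0.0062). Dusp6, which acts on ERK in the cytoplasm, read 9.18, 8.99 and 8.72 in control against 9.54, 9.69 and 9.61 after sleep deprivation (0.65 ± 0.11, adjusted p = 0.035). Control values of Dusp6 spread more widely than those of Dusp1, and its groups did not overlap, as in every changed gene. Spry4 (0.55 ± 0.063, adjusted p = 0.0081) and Spred1 (0.27 ± 0.051, adjusted p = 0.0491) inhibit the Ras to ERK pathway, and Errfi1 (0.21 ± 0.036, adjusted p = 0.033) inhibits the EGF receptor. Dusp1, Dusp4 and Spry4 passed in all 9 fits without a pool, Dusp6 in 2, and Spred1 and Errfi1 in 1. Without control pool 2 the list had 3 risers.

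The full cyclic AMP response element, TGACGTCA, was in 323 of 11830 genes with a promoter window (2.73%) and in 3 of 80 that rose (3.75%). Of those 3, Dusp1 and Errfi1 belong to the MAP kinase feedback list and are shown for comparison, with the element in capitals. In that list 3 of 14 genes with a window held it (21.4%), including Dusp8, which was not called and is not printed. The element begins 143 bases before the Dusp1 start and 51 bases before the Errfi1 start (RefSeq, GRCm38.p6):
Dusp1, chr17:26508588-26508635, minus strand: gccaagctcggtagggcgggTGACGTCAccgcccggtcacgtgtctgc
Errfi1, chr4:150854999-150855046, plus strand: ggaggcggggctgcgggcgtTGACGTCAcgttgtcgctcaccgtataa
The third riser with the element was Dio2, which encodes the deiodinase that makes active thyroid hormone in astrocytes and rose by 0.59 ± 0.085 (adjusted p = 0.018).

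**Figure D3:**
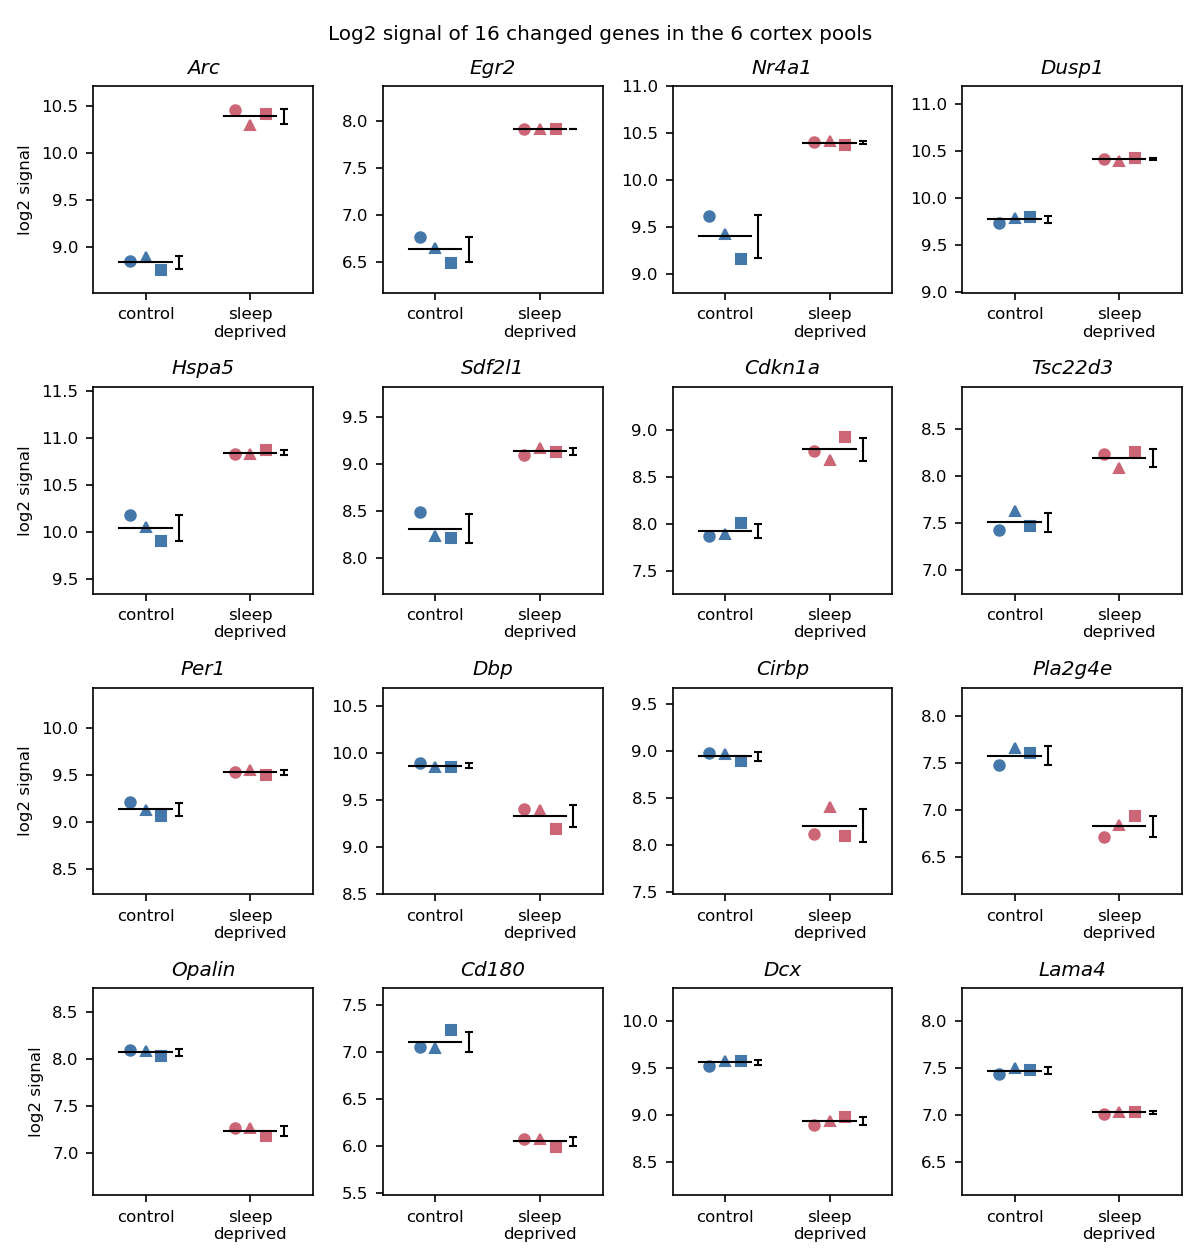
Log2 signal of 16 changed genes in each cortex pool, control in blue and sleep-deprived in red, where circle, triangle and square are pools 1, 2 and 3, lines are group means and side bars the SD (n = 3). In every panel, as in every changed gene, the 3 pools of one group lie apart from the 3 of the other. All vertical axes span the same number of log2 units around different levels.

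Several chaperones of the endoplasmic reticulum rose in the sleep-deprived cortex. Of 22 measured chaperones and folding enzymes, 8 rose, none fell and 14 did not pass (median 0.12, range -0.14 to 0.82). Over all genes, 0.723% rose. Hspa5, the Hsp70 of this compartment, read 10.18, 10.06 and 9.90 in control and 10.83, 10.84 and 10.87 in sleep-deprived pools (0.80 ± 0.075, 1.74-fold, adjusted p = 0.0037). Sdf2l1, which works with Hspa5 and its J-proteins, read 8.49, 8.23 and 8.21 in control against 9.10, 9.17 and 9.13 after sleep deprivation (0.82 ± 0.072, 1.77-fold, adjusted p = 0.0026). For both, the sleep-deprived pools lay close together and the control pools were more spread.

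The protein disulfide isomerases Pdia4 and Pdia6 rose by 0.51 ± 0.062 (adjusted p = 0.0097) and 0.46 ± 0.070 (adjusted p = 0.023). Manf, a secreted protein that binds Hspa5, rose by 0.44 ± 0.071 (adjusted p = 0.029). Hsp90b1, the Hsp90 of this compartment (0.35 ± 0.060, adjusted p = 0.035), Hyou1, an exchange factor for Hspa5 (0.32 ± 0.060, adjusted p = 0.0494), and Calr, a calcium-binding lectin chaperone (0.30 ± 0.035, adjusted p = 0.0094), completed the risers. Hspa5 and Sdf2l1 passed in all 9 fits without a pool, Calr and Pdia4 in 7, Pdia6 in 4, Manf in 3, and Hsp90b1 and Hyou1 in 1. Without control pool 2 the list had 3 risers.

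The unfolded protein response is the signalling pathway that induces these chaperones. Of 23 measured sensors, transcription factors and degradation genes, Xbp1 alone rose, from 10.04, 10.02 and 10.08 in control to 10.54, 10.44 and 10.34 in sleep-deprived pools (0.39 ± 0.052, adjusted p = 0.014), and it passed in 6 of 9 fits without a pool. Xbp1 encodes the factor that the sensor Ire1 activates by splicing, and the array signal does not separate the spliced form. The difference of Atf4 was 0.23 ± 0.074 (adjusted p = 0.22), that of Herpud1 0.26 ± 0.069 (adjusted p = 0.14) and that of Derl3 0.24 ± 0.061 (adjusted p = 0.13), and none of these passed. Of 20 amino acid response genes and tRNA synthetases, none was called by limma in either direction, and 1 had an unadjusted p under 0.05 (median -0.0040, range -0.13 to 0.12). The median of the 23 was 0.077. Over all genes, 0.723% rose and 1.63% changed, which comes to less than 1 gene in either list. An unadjusted p under 0.05 was found in 1984 of all 14807 genes.

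Some promoters of these chaperones hold a known element. The endoplasmic reticulum stress element reads CCAAT, any 9 bases and then CCACG, and is bound by NF-Y together with Atf6 or Xbp1. Its letters were in 15 of 11830 genes with a promoter window (0.127%). They were in 6 of 18 chaperones with a window (33.3%) and in 4 of the 6 of them that rose (66.7%), which were Hspa5, Hsp90b1, Calr and Pdia6. Canx and Creld2 also held it and were not called. Among all genes it was in 4 of 80 that rose (5%) and 0 of 109 that fell. Derl3 and Syvn1 held it among 19 genes of the unfolded protein response, and 7 of the 15 genes lie outside both lists. The stretches are shown to let the called and uncalled genes be compared, with the element in capitals on the strand of the gene, so that an element on the opposite strand reads CGTGG, any 9 bases, ATTGG (RefSeq, GRCm38.p6):
Hspa5, chr2:34772005-34772063, plus strand: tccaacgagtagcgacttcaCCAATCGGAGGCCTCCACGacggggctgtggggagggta
Hsp90b1, chr10:86705513-86705676, minus strand: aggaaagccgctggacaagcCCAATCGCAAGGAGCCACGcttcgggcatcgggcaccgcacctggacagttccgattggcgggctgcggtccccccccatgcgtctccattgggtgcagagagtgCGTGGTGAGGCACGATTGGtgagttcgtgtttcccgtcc
Calr, chr8:84847055-84847113, minus strand: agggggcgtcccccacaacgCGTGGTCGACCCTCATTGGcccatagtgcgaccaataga
Pdia6, chr12:17266471-17266529, plus strand: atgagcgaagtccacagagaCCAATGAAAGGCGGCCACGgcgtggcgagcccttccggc
Canx, chr11:50325780-50325838, minus strand: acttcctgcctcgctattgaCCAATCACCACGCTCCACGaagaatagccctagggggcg
Creld2, chr15:88819500-88819558, plus strand: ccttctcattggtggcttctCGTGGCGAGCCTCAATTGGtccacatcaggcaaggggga
The element of Hspa5 begins 65 bases before the start and that of Pdia6 98 bases before it. Hsp90b1 has one 212 and another 107 bases before the start, in opposite orientations. In Calr the distance is 162 bases, in Canx 145 and in Creld2 126.

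Some chaperones of the cytosol rose as well. Of 19 measured cytosolic and mitochondrial chaperones, 4 rose and none fell (median 0.17), beside 0.723% of all genes that rose. Dnajb5, a J-protein partner of Hsp70, read 9.60, 9.62 and 9.52 in control and 10.10, 10.08 and 10.10 in sleep-deprived pools (0.51 ± 0.038, adjusted p = 0.0017). Hspb8 is a small heat shock protein (0.39 ± 0.061, adjusted p = 0.024), Chordc1 a partner of Hsp90 (0.38 ± 0.030, adjusted p = 0.0018) and Hsph1 an exchange factor for Hsp70 (0.33 ± 0.062, adjusted p = 0.0497). Hsph1 passed in none of the 9 fits without a pool, Hspb8 in 4, and Dnajb5 and Chordc1 in all 9. The heat shock element, searched as TTC, 2 bases, GAA, 2 bases and TTC, was in 65 of 11830 genes with a window (0.549%). Within this list it was in 2 of 16 genes with a window, Chordc1 and Hsph1, both of which rose.

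Among the lists here, that of genes that respond to glucocorticoid hormones had the largest number of risers. Lists and members were chosen with earlier results of these data known, so this rank only describes the lists. Of 23 measured glucocorticoid-responsive genes, 11 rose, none fell and 12 did not pass, with a median of 0.32 and a range of -0.013 to 0.87. Over all genes, 0.723% rose. In the pools, the median deviation of the 23 genes from their control means was 0.23, 0.27 and 0.34 in sleep-deprived pools 1, 2 and 3. Cdkn1a, an inhibitor of cyclin-dependent kinases, read 7.88, 7.89 and 8.01 in control and 8.79, 8.69 and 8.93 in sleep-deprived pools (0.87 ± 0.068, 1.83-fold, adjusted p = 0.0017). Tsc22d3, a leucine zipper protein that dampens inflammatory transcription, read 7.42, 7.62 and 7.47 in control against 8.23, 8.08 and 8.26 after sleep deprivation (0.69 ± 0.077, adjusted p = 0.0077). Both rose in every pool relative to every control pool, as did every gene called higher. Fkbp5, a co-chaperone that lowers the hormone affinity of the glucocorticoid receptor, read 6.99, 6.72 and 7.01 in control against 7.41, 7.53 and 7.70 after sleep deprivation (0.64 ± 0.11, adjusted p = 0.032).

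Plin4, a coat protein of lipid droplets, read 6.24, 6.36 and 6.32 in control and 7.02, 6.95 and 6.98 in sleep-deprived pools (0.68 ± 0.092, adjusted p = 0.016). Hif3a, a factor related to the hypoxia-inducible factors, rose by 0.47 ± 0.084 (adjusted p = 0.040). Smaller rises were those of the repressor Bcl6 (0.39 ± 0.050, adjusted p = 0.012), the phagocytic receptor Mertk (0.32 ± 0.056, adjusted p = 0.037) and the glycerol phosphate dehydrogenase Gpd1 (0.25 ± 0.043, adjusted p = 0.035). Sgk1, Errfi1 and Per1, which other lists here also hold, were the remaining risers. Ddit4 (0.33 ± 0.11, adjusted p = 0.21) and Nfkbia (0.38 ± 0.13, adjusted p = 0.24) did not pass. Cdkn1a, Tsc22d3 and Per1 passed in all 9 fits without a pool, Bcl6 in 6, Plin4 and Sgk1 in 4, Fkbp5 in 2, Errfi1, Gpd1 and Hif3a in 1, and Mertk in none. The list had 3 risers without control pool 2 and 9 without recovered pool 3.

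Cdkn1a is also a target of p53, and was counted in a list of growth arrest and DNA damage genes as well. In that list it was the only 1 of 17 measured genes to rise, and none fell (median 0.051), beside 0.723% of all genes that rose. Gadd45b was 0.26 ± 0.080 above control (adjusted p = 0.19) and Trp53inp1 0.21 ± 0.048 (adjusted p = 0.096), and neither passed.

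The glucocorticoid response element was searched as AGAACA, 3 bases and TGTTC, and 1 of 11830 genes with a promoter window held it, Sgk1. The element is known to lie often far from start sites, which these windows do not cover. The match begins 189 bases before the start of Sgk1, is in capitals here, and is shown because it was the only one (RefSeq, GRCm38.p6):
Sgk1, chr10:21993681-21993735, plus strand: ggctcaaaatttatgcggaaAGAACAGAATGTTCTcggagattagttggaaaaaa

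Clock genes changed in both directions. Of 19 measured, 2 rose, 2 fell and 15 did not pass (median 0.038), beside 0.723% of all genes that rose and 0.905% that fell. Per1, a repressor of the clock that also responds to CREB and to glucocorticoids, read 9.21, 9.13 and 9.07 in control and 9.53, 9.56 and 9.50 in sleep-deprived pools (0.39 ± 0.042, adjusted p = 0.0057). Bhlhe40, a repressor that binds E-boxes, rose by 0.46 ± 0.063 (adjusted p = 0.016). Dbp, an output factor of the clock that E-boxes drive, went the other way, with 9.89, 9.84 and 9.84 in control and 9.40, 9.39 and 9.19 in sleep-deprived pools (-0.53 ± 0.065, adjusted p = 0.0099). Usp2, a deubiquitinase with a daily rhythm, fell with it (-0.36 ± 0.035, adjusted p = 0.0038). Per1 and Usp2 passed in all 9 fits without a pool, Dbp in 8 and Bhlhe40 in 6.

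The E-box CACGTG was in 1202 of 11830 genes with a window (10.2%) and in 4 of 17 clock genes (23.5%), of which Per1 was the 1 that changed. Its E-box, in capitals, begins 166 bases before the start and is shown because Per1 belongs to both the clock and the glucocorticoid list (RefSeq, GRCm38.p6):
Per1, chr11:69098763-69098808, plus strand: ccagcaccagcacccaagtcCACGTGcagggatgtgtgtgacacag

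Cirbp, an RNA-binding protein whose transcript rises when brain temperature falls, was among the largest falls. It read 8.97, 8.96 and 8.89 in control and 8.12, 8.41 and 8.09 in sleep-deprived pools (-0.74 ± 0.080, 1.67-fold lower, adjusted p = 0.0063). Sleep-deprived pool 2 was nearer to control than the others, and all 3 lay below all controls, as in every gene that fell. Of 22 measured cold-inducible and splicing RNA-binding proteins, Cirbp alone fell and Sfpq alone rose (0.23 ± 0.040, adjusted p = 0.036). Over all genes, 0.723% rose and 0.905% fell. Cirbp passed in all 9 fits without a pool and Sfpq in 1. Brain temperature is not given in the labels.

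**Figure D4:**
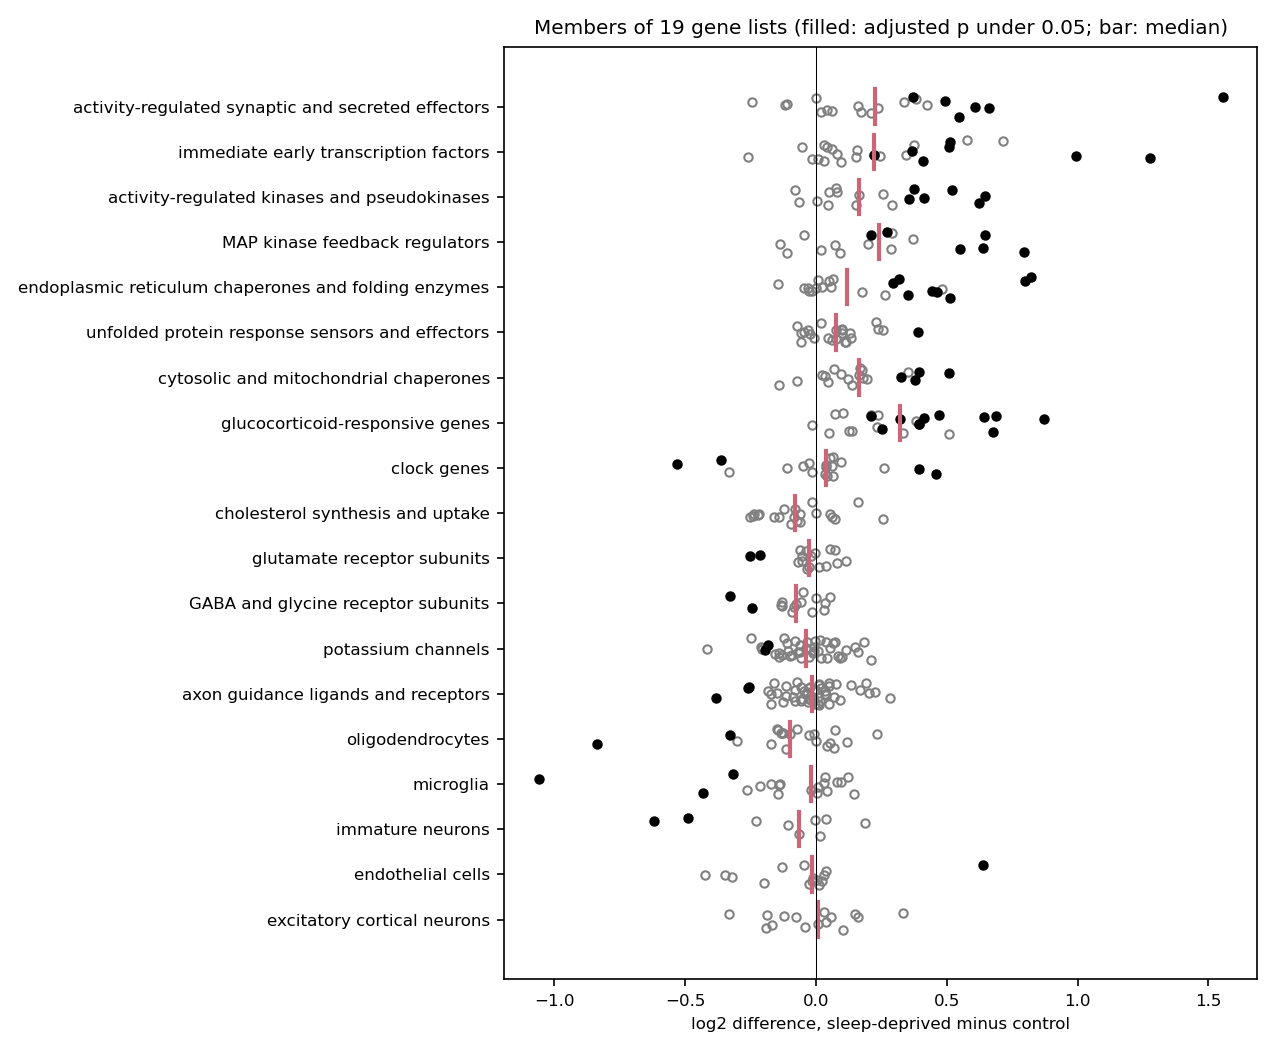
Log2 difference between sleep-deprived and control cortex for the members of 19 gene lists, where each circle is 1 gene, filled circles passed at an adjusted p under 0.05 and the bar is the list median. Filled circles of the top 8 lists all lie to the right of 0, while those of the receptor, channel, guidance, oligodendrocyte, microglia and immature neuron lists all lie to the left.

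A few receptor and channel genes changed, all lower in the first 3 lists given here, beside 0.905% of all genes that were lower. Of 17 glutamate receptor subunits, the AMPA receptor subunit Gria4 (-0.21 ± 0.033, adjusted p = 0.024) and the metabotropic receptor Grm3 (-0.25 ± 0.041, adjusted p = 0.031) fell and none rose (median -0.026). Gria1 (0.11 ± 0.046) and Gria2 (-0.053 ± 0.027) did not pass. Of 15 inhibitory receptor subunits, the GABA receptor subunit Gabra4 (-0.24 ± 0.042, adjusted p = 0.035) and the glycine receptor subunit Glra2 (-0.33 ± 0.042, adjusted p = 0.012) fell (median -0.075). Of 44 potassium channels, Kcnj3, a subunit of the channel that inhibitory G proteins open (-0.18 ± 0.033, adjusted p = 0.043), and Kcnh5 (-0.19 ± 0.037, adjusted p = 0.0494) fell, and none rose. The largest of these 6 falls was that of Glra2 (1.26-fold lower). Glra2 passed in 6 of 9 fits without a pool, Gria4 and Grm3 in 2, and Gabra4, Kcnj3 and Kcnh5 in 1. Over all 18 alternatives, those fits included, the differences stayed between -0.37 and -0.30 for Glra2, between -0.28 and -0.21 for Gabra4 and between -0.21 and -0.17 for Kcnj3.

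None of 28 sodium, calcium, HCN and TRP channels was called by limma (3 at an unadjusted p under 0.05), nor any of 32 receptors for monoamines, acetylcholine, histamine, orexin and adenosine (4). Over all genes, 1984 of 14807 were under that unadjusted p. The 1.63% of all genes that changed comes to less than 1 gene in each list of this paragraph. In that second list the highest difference was that of the serotonin receptor Htr1b (0.42 ± 0.12, adjusted p = 0.17). Among 38 neuropeptide receptors the extremes were the 2 that changed. Mc4r, the melanocortin receptor that acts in feeding circuits, read 7.31, 7.25 and 7.60 in control and 8.12, 8.10 and 8.08 in sleep-deprived pools (0.71 ± 0.093, adjusted p = 0.013). Pth2r, a receptor for a parathyroid hormone-like peptide, read 5.97, 6.02 and 5.73 in control against 5.20, 5.45 and 5.28 after sleep deprivation (-0.59 ± 0.089, adjusted p = 0.022). Mc4r rose and Pth2r fell, without overlap of the groups as in every changed gene. Each passed in 4 of 9 fits without a pool. Of 30 presynaptic genes only Sytl2, which encodes a protein of vesicle docking, changed (9.13, 9.20 and 9.20 in control, 8.59, 8.63 and 8.60 in sleep-deprived pools, -0.57 ± 0.031, adjusted p = 2.2e-04). It passed in all 9 of those fits. None of 23 postsynaptic scaffold genes was called by limma, and 4 had an unadjusted p under 0.05.

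The orphan receptor Gpr12 is related to Gpr3 and raises cyclic AMP as well. It fell while Gpr3 rose, from 8.27, 8.25 and 8.33 in control to 7.68, 7.88 and 7.89 in sleep-deprived pools (-0.47 ± 0.073, adjusted p = 0.026), and passed in 2 of 9 fits without a pool. The third member, Gpr6, did not pass (-0.18 ± 0.14, adjusted p = 0.65). This family was picked after the values were seen.

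Cd180 and Opalin, genes of microglia and oligodendrocytes, were among the 30 largest falls. Opalin, a membrane protein of myelinating oligodendrocytes, read 8.10, 8.08 and 8.02 in control and 7.26, 7.26 and 7.17 in sleep-deprived pools (-0.84 ± 0.063, 1.79-fold lower, adjusted p = 0.0017). Aspa, which splits acetylaspartate in oligodendrocytes, fell as well, from 7.90, 7.83 and 7.91 to 7.54, 7.56 and 7.56 (-0.33 ± 0.043, adjusted p = 0.014). Of 21 oligodendrocyte markers these 2 fell and none rose (median -0.098, range -0.84 to 0.23), beside 0.905% of all genes that fell. The major myelin genes did not pass, with Mbp at 0.12 ± 0.035 (adjusted p = 0.17), Mobp at 0.23 ± 0.048 (adjusted p = 0.069), Mag at -0.14 ± 0.051 (adjusted p = 0.29) and Mog at -0.072 ± 0.063 (adjusted p = 0.69). None of 9 markers of oligodendrocyte precursors was called by limma (median 0.046), and 0 had an unadjusted p under 0.05.

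Of 19 microglial markers, 3 fell and none rose (median -0.019), beside 0.905% of all genes that fell. Cd180, a receptor related to Toll-like receptors, had the largest fall among changed genes, with 7.05, 7.05 and 7.24 in control and 6.08, 6.08 and 5.99 in sleep-deprived pools (-1.06 ± 0.081, 2.09-fold lower, adjusted p = 0.0017). P2ry13, a purine receptor, read 8.71, 8.73 and 8.68 in control against 8.31, 8.23 and 8.29 after sleep deprivation (-0.43 ± 0.033, adjusted p = 0.0017). Trem2, a lipid-sensing receptor, read 7.76, 7.76 and 7.78 in control against 7.38, 7.54 and 7.43 after sleep deprivation (-0.32 ± 0.044, adjusted p = 0.016). The groups did not overlap in any of them, as in every changed gene, and the falls were of unequal size. The defining markers did not pass, with Cx3cr1 at -0.26 ± 0.072 (adjusted p = 0.14), P2ry12 at -0.17 ± 0.086 (adjusted p = 0.45), Tmem119 at 0.095 ± 0.10 (adjusted p = 0.75) and Csf1r at 0.0072 ± 0.038 (adjusted p = 0.97). Cd180, P2ry13 and Opalin passed in all 9 fits without a pool, and Aspa and Trem2 in 5.

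Dcx, a microtubule protein of migrating and young neurons, read 9.52, 9.57 and 9.58 in control and 8.89, 8.94 and 8.98 in sleep-deprived pools (-0.62 ± 0.033, adjusted p = 2.2e-04). Nrep, a small neuronal protein, fell beside it (-0.49 ± 0.044, adjusted p = 0.0032). They were the 2 of 9 immature neuron markers that changed, beside 1.63% of all genes. Sox11 (0.19 ± 0.068) and Sox4 (-0.066 ± 0.068) did not pass. Dcx and Nrep passed in all 9 fits without a pool.

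In the vasculature, Mfsd2a, the transporter of docosahexaenoic acid at the blood-brain barrier, rose from 8.88, 8.76 and 8.70 in control to 9.41, 9.37 and 9.48 in sleep-deprived pools (0.64 ± 0.061, adjusted p = 0.0038). It was the 1 of 15 endothelial markers that changed (median -0.015). Slc2a1, the glucose transporter of the same barrier and of astrocytes, rose by 0.42 ± 0.044 (adjusted p = 0.0056), the 1 riser among 23 genes of glycolysis and glucose transport. Over all genes, 1.63% changed, which comes to less than 1 gene in either list. Mfsd2a and Slc2a1 passed in all 9 fits without a pool. The endothelial markers Cldn5 (-0.028 ± 0.073), Pecam1 (0.023 ± 0.031) and Flt1 (0.038 ± 0.037) did not pass.

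The mean level of whole marker lists moved little, and in 5 of 15 lists the pools of the groups did not overlap. Among single genes, 18.8% of all had pools that did not overlap. The oligodendrocyte and immature neuron means include the called genes Opalin, Aspa, Dcx and Nrep. The mean log2 signal of the 21 oligodendrocyte markers was 9.012 to 9.084 in control pools and 8.938 to 8.975 in sleep-deprived pools. For the 9 immature neuron markers it was 8.223 to 8.251 and then 8.076 to 8.119. For the 14 astrocyte markers it was 9.832 to 9.855 and then 9.876 to 9.899, for 15 endothelial markers 7.77 to 7.802 and then 7.709 to 7.762, and for 12 pericyte markers 7.228 to 7.274 and then 7.199 to 7.212. These means were higher after sleep deprivation for the astrocyte list and lower for the other 4. The median deviation of the markers from their control means did overlap for astrocytes, at 0.037, 0.0033 and -0.044 in control and 0.035, 0.015 and 0.038 in sleep-deprived pools. For immature neurons it was -0.023, -0.012 and 0.023 in control and -0.063, 0.035 and -0.096 in sleep-deprived pools, which overlapped too. The 19 microglial markers overlapped, at 7.685 to 7.786 in control and 7.575 to 7.697 in sleep-deprived pools. The share of these shifts in the changes of single genes was not tested. None of 15 excitatory neuron markers (median 0.0087), 15 interneuron markers (0.023) or 14 astrocyte markers (0.029) was called by limma. At an unadjusted p under 0.05 there were 8, 1 and 1 of them.

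Dissection can carry neighbouring tissue into a cortex sample. None of the measured markers of meninges (11), choroid plexus (8), blood (6), striatum (5), hippocampus (5) or thalamus (5) was called by limma. The 1.63% of all genes that changed comes to less than 1 gene in each of these lists. The lack of calls therefore does not show that no such tissue was carried. At an unadjusted p under 0.05 there were 0, 0, 0, 0, 2 and 1 of them, in that order. The list medians were -0.0092, 0.050, 0.026, -0.056, 0.18 and 0.014, in the same order. Sleep-deprived pools 1, 2 and 3 had median deviations from the control means of 0.071, 0.32 and 0.022 for hippocampus. For striatum these were -0.35, 0.19 and -0.00026. The choroid plexus gene Ttr varied between pools of one group, with 7.83, 10.40 and 7.10 in control and 10.53, 11.19 and 7.72 in sleep-deprived pools (1.36 ± 1.18, adjusted p = 0.69). Of the 8 choroid plexus markers, 6 had a difference above 0. The striatal receptor Drd2 read 8.94, 8.90 and 8.95 in control and 8.44, 9.23 and 8.99 in sleep-deprived pools. The pools of the groups overlapped for both genes, and what such tissue contributes to the changes was not tested.

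A few genes of axon guidance and the extracellular matrix fell, read beside 0.905% of all genes that were lower. Of 52 axon guidance ligands and receptors, 3 fell, none rose and 49 did not pass (median -0.016). Slit2, a secreted repellent, read 8.56, 8.61 and 8.66 in control and 8.22, 8.24 and 8.22 in sleep-deprived pools (-0.38 ± 0.045, adjusted p = 0.0082). The netrin receptor Unc5d (-0.26 ± 0.043, adjusted p = 0.032) and the semaphorin Sema6a (-0.26 ± 0.049, adjusted p = 0.0494) also fell. Nectin3, an adhesion molecule of synapses that belongs to no list here, read 9.29, 9.24 and 9.22 in control against 8.68, 8.71 and 8.67 after sleep deprivation (-0.56 ± 0.030, adjusted p = 2.2e-04). Of 50 matrix and integrin genes, the laminin Lama4 of vessel basement membranes fell (7.43, 7.50 and 7.47 in control, 7.01, 7.03 and 7.03 in sleep-deprived pools, -0.44 ± 0.045, adjusted p = 0.0047), and the protease inhibitor Timp3 rose by 0.16 ± 0.030 (adjusted p = 0.0494). Slit2, Nectin3 and Lama4 passed in all 9 fits without a pool, Unc5d in 2, Sema6a in 1 and Timp3 in none.

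Pla2g4e, a phospholipase of the cytosol that also makes precursors of endocannabinoids, read 7.47, 7.66 and 7.61 in control and 6.71, 6.84 and 6.94 in sleep-deprived pools (-0.75 ± 0.081, adjusted p = 0.0062). In its list of 33 phospholipases and lysolipid enzymes only Plcd4 also changed, upward (0.26 ± 0.043, adjusted p = 0.032). Frzb, a secreted protein that binds Wnt ligands, read 8.58, 8.52 and 8.66 in control against 8.16, 8.11 and 8.05 after sleep deprivation (-0.48 ± 0.047, adjusted p = 0.0038). Dact2, which binds Dishevelled, read 8.99, 9.00 and 8.94 in control against 8.52, 8.44 and 8.52 after sleep deprivation (-0.48 ± 0.036, adjusted p = 0.0017). Both were named for the size of their falls, and neither belongs to the list of 37 Notch and Wnt genes, in which none was called by limma and 9 had an unadjusted p under 0.05. Over all genes, 1.63% changed and 1984 of 14807 had an unadjusted p under 0.05. Phka2, a regulatory subunit of phosphorylase kinase, was the 1 of 15 glycogen genes to fall (-0.25 ± 0.047, adjusted p = 0.0493). Pla2g4e, Frzb and Dact2 passed in all 9 fits without a pool, Plcd4 in 2 and Phka2 in 1.

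The 30 largest falls also included regulators of small GTPases, namely Rasl11b (-0.59 ± 0.048), Rasgef1b (-0.57 ± 0.091) and Rassf3 (-0.50 ± 0.062), and the kinases Hunk (-0.50 ± 0.061) and Pak7 (-0.46 ± 0.039). Cstad had the next largest fall after Cd180, with 7.43, 7.74 and 7.62 in control and 6.35, 6.74 and 6.69 in sleep-deprived pools (-1.004 ± 0.12, adjusted p = 0.0096). Tfrc, the transferrin receptor of iron uptake, changed by -0.52 ± 0.085 (adjusted p = 0.031). Inmt, a methyltransferase of indole amines (-0.55 ± 0.051), Gfpt2, an enzyme of hexosamine synthesis (-0.52 ± 0.086), and Prcp, a peptidase that inactivates melanocyte-stimulating hormone (-0.48 ± 0.057), were also lower. The rest were Ankrd34c (-0.67 ± 0.11), Hmgb3 (-0.52 ± 0.098), Zkscan2 (-0.52 ± 0.094), Brinp3 (-0.49 ± 0.048), Btf3l4 (-0.47 ± 0.067), Zfp810 (-0.47 ± 0.075) and Mfsd4a (-0.46 ± 0.044). Gfpt2, Hmgb3 and Zkscan2 passed in 1 of 9 fits without a pool, and Ankrd34c, Rasgef1b and Tfrc in 2. Zfp810 passed in 3, Btf3l4 in 5, Hunk in 7, Rassf3 in 8, and Cstad, Rasl11b, Pak7, Inmt, Prcp, Brinp3 and Mfsd4a in all 9.

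The largest rises outside the lists had diverse functions. Tm6sf2, a membrane protein of lipid secretion known from liver, read 7.01, 7.06 and 7.03 in control and 7.71, 7.82 and 7.77 in sleep-deprived pools (0.74 ± 0.040, adjusted p = 2.2e-04). P4ha1, the catalytic subunit of collagen prolyl hydroxylase, read 8.80, 8.76 and 8.71 in control against 9.30, 9.30 and 9.39 after sleep deprivation (0.57 ± 0.050, adjusted p = 0.0026). Alox12b, a lipoxygenase known from skin, read 7.29, 7.11 and 7.08 in control against 7.67, 7.74 and 7.73 after sleep deprivation (0.55 ± 0.065, adjusted p = 0.0085). All 3 passed under every setting tried. Pkp2, a desmosomal protein (0.60 ± 0.080), Serinc2 (0.64 ± 0.082), Sgsm1 (0.62 ± 0.092), the peptidoglycan-binding Pglyrp1 (0.56 ± 0.080) and the death receptor Tnfrsf25 (0.55 ± 0.070) rose as well. They passed in 7, 5, 5, 4 and 6 of the 9 fits. The deubiquitinase Otub2 rose by 0.53 ± 0.062 (adjusted p = 0.0082) and the nuclear matrix protein Banp by 0.52 ± 0.043 (adjusted p = 0.0019), each in all 9. Dio2, given above, passed in 5 and was the 1 riser among 12 thyroid hormone genes, beside 0.723% of all genes that rose.

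Other lists had no gene called by limma in either direction, beside 1.63% of all genes that changed, a share that comes to less than 1 gene in a list of this size. They were 21 cholesterol synthesis and uptake genes (median -0.081), 25 fatty acid and sphingolipid genes (-0.022) and 27 respiratory chain subunits (-0.021). The same held for 22 translation factors and mTOR genes (-0.0066), 25 proteasome subunits (-0.023), 29 inflammatory genes (-0.013) and 31 neuropeptides and growth factors (0.016). At an unadjusted p under 0.05 there were 4, 5, 1, 2, 0, 3 and 7 genes of these 7 lists, in the order given. Of the cholesterol genes, 5 of 21 had a difference above 0. Those with the smallest p included Insig1 (-0.24 ± 0.057, adjusted p = 0.097), Hmgcs1 (-0.22 ± 0.056, adjusted p = 0.12) and Lss (-0.25 ± 0.066, adjusted p = 0.13), and none passed.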

How the data were processed

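The deposited table holds log2 signals that the authors made with RMA (background correction, normalization and probe summary), per the submitters' processing notes. Its version and settings: not given in the sources used here. Of 23238 probe sets, 14939 had 1 gene symbol in the platform annotation, 989 several and 7310 none. By Entrez ID, 14884 matched a RefSeq table of GRCm38.p6, used for names. For 131 genes with more than 1 probe set, that with the highest mean over 18 arrays was kept. No gene was removed for low signal. Groups were taken from sample titles. The contrast was fitted on the 9 cortex arrays (lmFit and eBayes of limma 3.58.1 under R 4.3.3, two-sided tests), without a block, and adjusted over 14807 genes. The number of arrays limits the precision. In data simulated at this size, 12 of 50 genes changed by log2 0.25 were recovered, 36 of 50 at 0.5, 46 of 50 at 1 and 50 of 50 at 2, with 9 false calls.

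The 34 pathway lists and 15 marker lists were written from general knowledge, and members and lists were chosen with earlier results of these data known. Lists are described by counts and medians, without a set test. Named genes are the 30 largest rises and falls, list members that changed or had the 4 smallest p, defining markers, and Arc, Fos, Egr1, Homer1, Bdnf, Nptx2, Hspa5, Per1, Dbp and Cirbp. Promoter windows are RefSeq's, found for 11830 genes. The alternatives tried are given in the closing section.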

Additional observations from a re-analysis of the deposited data

How the results depend on the processing

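The count of 241 changed genes (107 higher, 134 lower) moved with the arrays and the model. With only the 6 compared arrays it was 94 (46 higher, 48 lower), of which 87 were among the 241, and with all 18 arrays in one model it was 31 (21 and 10), of which 29 were. Quantile normalization gave 331 (170 and 161), centring each array on its median 300 (137 and 163), a filter that drops the dimmest 30% of genes 380 (163 and 217), trend and robust settings 293 (125 and 168), and the mean of all probe sets of a gene 252 (113 and 139). Array weights gave 811 (293 and 518), which held all 241. Leaving out 1 cortex pool gave 72 to 212 changed genes, 34 to 88 higher and 38 to 124 lower. With the replicate number as a block it was 140 (66 and 74), of which 129 were shared. The sample titles number the pools without stating a pairing. Deviations of same-numbered control and sleep-deprived pools correlated at -0.034, 0.046 and 0.10, and those of unlike numbers at -0.14 to 0.080. With 3 pools per group these correlations cannot settle whether the pools are paired. The cause of these differences was not tested, beyond the smaller number of genes tested under the signal filter (10365) and of arrays where some were left out. Over 113 named genes, 542 of the gene and setting pairs lost the call, 3 gained one and 0 reversed. Of the 241 genes, 88 were called under fewer than 9 of the 18 alternatives. Dim genes had less precise values, with a median standard error of 0.083 in the dimmest of 3 equal groups by mean signal and 0.049 in the brightest.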

Other observations

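Changed genes were mostly bright ones. With the 14807 genes cut into 3 equal groups by mean signal, 5 rose and 9 fell in the dimmest, 42 and 52 in the middle one, and 60 and 73 in the brightest. The median standard error decreased across them, from 0.083 through 0.059 to 0.049 on the log2 scale.

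Olfactory receptor genes, a large family of sensory receptors with little known expression in cortex, serve here as a set of mostly dim probe sets. Of 717 measured, 3 rose (0.418%) and none fell, beside 0.723% of all genes that rose, with a median difference of 0.028. The 3 were Olfr1444, Olfr1218 and Olfr402. Olfr1444 read 2.74, 2.75 and 2.58 in control and 3.60, 3.61 and 3.26 in sleep-deprived pools (0.80 ± 0.097, adjusted p = 0.0097), and passed in all 9 fits without a pool. Cross-hybridisation of its probes was not tested.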
